A study of Mus musculus with 2 samples.

Results

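The glycolysis and hypoxia genes described here are 32 of the 22480 gene symbols in the deposited tables. They were taken by symbol, and all 32 rows were present in both tables. The rule uses no measured value, but the members were chosen with earlier results of these data known. They hold 19 enzymes of glucose breakdown, 2 transporters, 9 targets of the hypoxia response, the hypoxia regulator Hif1a and the cytokine Mif, which belongs to no other group. The samples were 2 single-cell libraries of spinal cord from C57BL/6 mice aged 8 weeks, 1 of sham animals and 1 taken 3 days post injury (3 dpi). Each library pooled 5 male and 5 female mice and came from an 8 mm stretch of cord around the injury, so it counts as 1 sample whatever its number of cells. The labels used here state neither the sham procedure nor the way the cord was injured.

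Glycolysis splits glucose to pyruvate in the cytosol and yields ATP without oxygen, and lactate dehydrogenase turns pyruvate to lactate so that the pathway can go on. When oxygen is low, prolyl hydroxylases no longer mark the HIF1A protein for destruction, and it then switches on genes of glucose uptake, glycolysis, lactate export, mitochondrial removal and vessel growth by binding short motifs in their promoters. In injured cord, phagocytes, glia and vessels meet both tissue with poor blood supply and inflammatory signals, and the same enzymes are also raised in activated macrophages.

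The motif core bound by HIF complexes is written here as its 2 spellings, ACGTG and GCGTG, searched on both strands in the 250 bases before each RefSeq start site (GRCm38.p6). These letters stood in 38.6% of all 32851 windows. They stood in 33 of the 43 windows of the members, which cover 29 genes, and Bnip3l, Ndrg1 and Slc2a3 had no window. Some windows of the same gene overlap and hold the same matches, as for Aldoa, Eno1 and Pfkm, so the 43 are not independent. Of the 19 enzyme genes 16 had at least 1 match, and of the 7 hypoxia targets with a window all 7 had. These counts are per gene, and some genes have several windows. They cannot be set against the 38.6%, which is per window, and no share per gene over all genes is given. A match is a description of the letters, not a site in use. The 4 windows below are shown because the results turn on their genes: the lactate dehydrogenase pair that went opposite ways, the enzyme with the largest ratio in microglia-like cells, and the hypoxia target with the most matches. Each reads 5′ to 3′ on the gene's strand towards the start site, with the matches in capitals. CACGT and CACGC are the matches read from the other strand, and CACGTG is a match on both strands and counts as 2.
Ldha, chr7:46845554-46845803, plus strand: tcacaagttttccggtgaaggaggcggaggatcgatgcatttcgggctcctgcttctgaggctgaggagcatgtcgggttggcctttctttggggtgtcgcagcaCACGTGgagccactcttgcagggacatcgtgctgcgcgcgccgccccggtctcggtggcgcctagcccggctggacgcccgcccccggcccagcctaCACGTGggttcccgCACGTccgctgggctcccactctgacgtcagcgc
Ldhb, chr6:142507958-142508207, minus strand: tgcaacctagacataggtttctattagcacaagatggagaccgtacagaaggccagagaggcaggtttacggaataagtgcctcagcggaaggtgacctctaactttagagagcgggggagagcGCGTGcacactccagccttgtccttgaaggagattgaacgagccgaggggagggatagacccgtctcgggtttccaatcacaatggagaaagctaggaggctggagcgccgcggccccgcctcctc
Pgk1, chrX:106186850-106187099, plus strand: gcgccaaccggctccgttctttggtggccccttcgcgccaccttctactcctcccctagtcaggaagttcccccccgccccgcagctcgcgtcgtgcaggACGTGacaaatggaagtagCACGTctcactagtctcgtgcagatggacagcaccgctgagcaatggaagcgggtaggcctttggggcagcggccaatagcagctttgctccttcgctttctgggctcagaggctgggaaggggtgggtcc
Bnip3, chr7:138909507-138909756, minus strand: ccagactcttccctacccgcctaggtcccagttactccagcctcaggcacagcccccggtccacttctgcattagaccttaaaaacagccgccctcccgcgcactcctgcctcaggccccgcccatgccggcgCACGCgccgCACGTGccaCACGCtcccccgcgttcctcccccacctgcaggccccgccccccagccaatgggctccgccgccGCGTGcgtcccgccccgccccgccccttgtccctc
The Ldha window held 5 matches, all of ACGTG, and the window of its other start site 1. Ldhb had 1 match, Pgk1 2 and Bnip3 5. Pgk1 and Ldhb went opposite ways between libraries, and the window of each held a match.

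The sham library had 10138 barcodes with 76889038 UMIs (unique molecule tags). The 3 dpi library had 13594 barcodes with 149291783 UMIs, and 39 barcodes occurred in both. After filters and removal of called doublets, 9306 and 12108 cells were kept. Cells were clustered without the members and named by marker genes, so a class is called X-like. All levels are UMIs of a gene per 1000000 UMIs of its class and library (CPM), with exact 95% intervals that cover counting error only. Microglia-like cells numbered 2180 in sham (mostly cluster 1) and 2635 at 3 dpi (clusters 3 and 9), so no cluster was shared by the bulk of both. All 10 microglia markers were present in both, summing to 21833 CPM in sham and 5704 at 3 dpi. The monocyte and macrophage markers summed to 15.4 CPM in the sham cells and 1688 at 3 dpi. Of the 3 dpi sum Fn1 made up 1347, Arg1 214, Thbs1 77.7 and Ms4a7 32.3 CPM. Chil3 and Ms4a4c were each at 5.91 CPM, F10 at 1.83, Ccr2 at 1.41, Plac8 at 1.19 and Ly6c2 at 0.371. A cluster of 2191 cells at 3 dpi led by Lyz2, Pf4 and Arg1 scored alike for monocytes and for border-associated macrophages and stayed unnamed. It is called the Arg1-Pf4 cluster.

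In the sham library the enzymes made up between 0.229% of UMIs in border-associated macrophage-like cells and 0.420% in oligodendrocyte precursor-like cells. Precursor-like cells (283 cells) were the highest of the 6 classes for 11 of the 32 members, microglia-like cells for 6 and oligodendrocyte-like cells (4356) for 5. No share over all genes is given beside these counts, so they do not set the members apart from other genes. Some members differed widely between the classes. Hk2, the hexokinase that is raised in active phagocytes and traps glucose in the cell, was at 425 CPM in sham microglia-like cells and 91.3 in border-associated macrophage-like cells, and at 1.34 to 7.56 CPM in the other 4 classes. Pfkfb3, which makes the main activator of phosphofructokinase, was at 124 CPM in microglia-like cells and between 3.64 and 12 elsewhere. Aldoc, the brain aldolase, was at 743 CPM in precursor-like cells and 253 in oligodendrocyte-like cells, and at 12.3 in endothelial-like cells. Ndrg1, a stress-response gene that myelinating cells also use, was at 1077 CPM in oligodendrocyte-like and 684 in endothelial-like cells. The hypoxia targets Adm, Egln3 and Hilpda were all under 35 CPM in every sham class, and the highest of each was 21.7 (endothelial-like), 5.35 and 34.8 (both precursor-like).

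**Figure D1:**
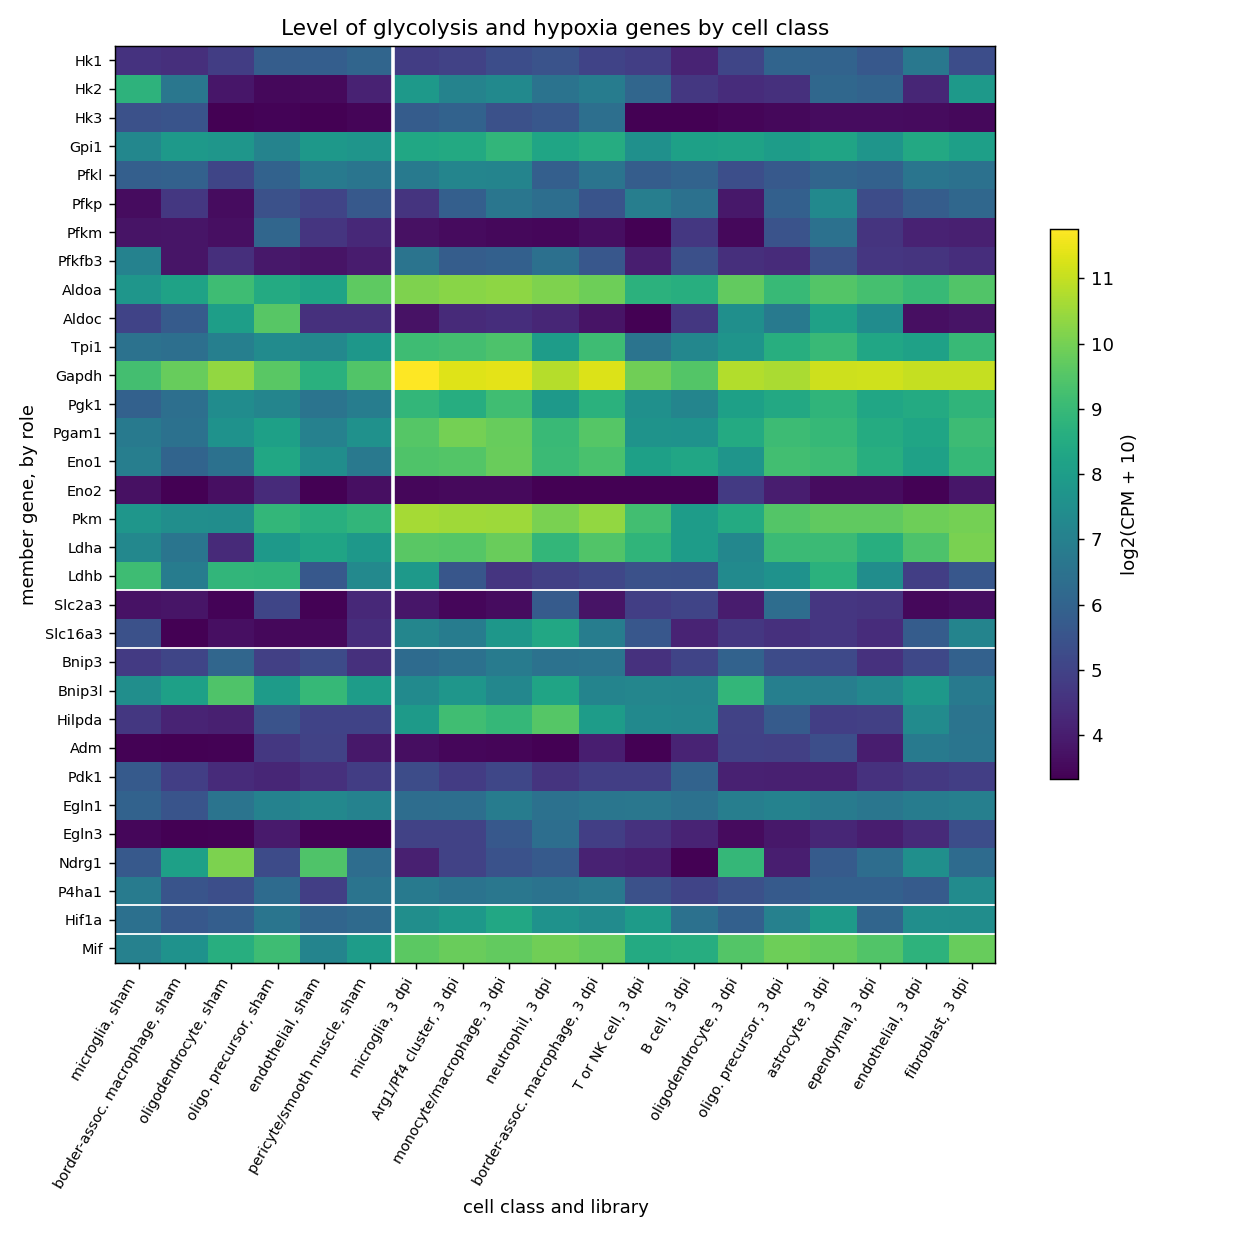
Level of the 32 members (rows, grouped by role with white lines) in each cell class of the sham library (left of the white line) and the 3 dpi library (right), as log2 of CPM with 10 CPM added. Hk2 is at 220 CPM in microglia-like and 223 in fibroblast-like cells at 3 dpi, Aldoc is highest in precursor-like cells in sham and astrocyte-like cells at 3 dpi, and Ldha is highest in fibroblast-like cells at 3 dpi.

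Between libraries, 5 classes could be set side by side, each holding 50 cells or more in sham and at 3 dpi. A member counts as measured in a class if either library reached 20 CPM. It is called higher or lower where the ratio passed 2-fold with 10 CPM added to both, which is a rule of size. With 1 library a group there is no test, and animals, batches and handling cannot be told apart from injury. Ratios on the log2 scale below include the 10 CPM, and folds are ratios of CPM with exact conditional 95% intervals.

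Taken over the measured enzymes, a set that differs from class to class, microglia-like cells had the highest median of the 5 classes. Gene by gene the order was mixed. Among enzymes higher in both classes, Eno1, Pgam1, Tpi1, Pkm and Ldha had larger log2 ratios in border-associated macrophage-like cells. Aldoa, Gapdh and Pgk1 had larger ones in microglia-like cells. The enzymes of microglia-like cells went from 0.286% to 1.03% of all their UMIs. Of the 15 measured enzymes 9 were higher at 3 dpi and 2 lower, with a median log2 ratio of 2.34. Without the filter on low members, over all 19 enzymes, the median was 0.996. Over all 6206 measured genes 11.7% were higher and 16.4% lower, and the median was -0.15. Of 8 measured hypoxia targets 3 were higher and 1 lower, with a median of 0.17. The steps of the pathway did not move alike: the enzymes from aldolase to lactate dehydrogenase A were higher together, while the hexokinases and Pfkfb3 were not.
Pgk1, which makes the first ATP of the pathway and lies on the X chromosome, was at 50.9 CPM in sham (interval 46.4 to 55.8) and 466 at 3 dpi (459 to 473), 9.15-fold higher (8.34 to 10.1). Pkm, pyruvate kinase, went from 207 to 1566 CPM (7.56-fold, 7.22 to 7.92). Pgam1, phosphoglycerate mutase, went from 98.8 to 736 CPM (7.45-fold, 6.97 to 7.97). Tpi1, triosephosphate isomerase, went from 81.2 to 552 CPM. These 4 lay between 2.62 and 2.97 on the log2 scale. Gapdh (598 and 3441 CPM), Eno1 (112 and 683), Aldoa (206 and 1118) and Ldha (141 and 757) followed at 5.35- to 6.09-fold, and Gpi1 (139 and 312) at 2.25-fold. Each of these 9 calls was kept under all 16 other settings tried.
Hk2 and Pfkfb3 differed from this. Hk2 was at 425 CPM in sham and 220 at 3 dpi, a log2 ratio of -0.92 that stayed within 2-fold. Pfkfb3 (124 and 84.3 CPM) also went down within 2-fold. Pfkl (48.3 and 101 CPM) and Hk3 (32.4 and 45.3) went up, and both stayed within 2-fold on the log2 scale. For Pfkl the added 10 CPM decides this. Ldhb, the lactate dehydrogenase of oxidative tissues, was lower, at 553 CPM in sham (538 to 569) and 223 at 3 dpi (218 to 228). Its log2 ratio was -1.27, and with cycling cells left out it was -0.78, which ends the call. Aldoc, at 22.2 and 3.31 CPM, also had a log2 ratio of -1.27. With each cell thinned to 1000 UMIs Aldoc was no longer past 2-fold.

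Among the hypoxia targets of microglia-like cells, Hilpda, which blocks the lipase of lipid droplets, went from 15.9 to 234 CPM (14.7-fold, 12.5 to 17.5). Bnip3, a receptor for removal of mitochondria, went from 16.8 to 67.6 CPM (4.03-fold, 3.42 to 4.77). Egln3, an inducible prolyl hydroxylase of HIF, had 9 UMIs in sham and 804 at 3 dpi, or 0.994 and 21.3 CPM. The other targets showed no such difference. Bnip3l (169 and 153 CPM), P4ha1 (103 and 102), Egln1 (53.2 and 70.4) and Pdk1 (42.0 and 29.2) all stayed within 2-fold. Ndrg1 was at 41.6 CPM in sham and 6.55 at 3 dpi. That sham level was 3.87% of the one in oligodendrocyte-like cells, beside 3.28% for the summed myelin markers, and the log2 ratio was 0.04 once free RNA, set at 5% of the class total, was taken off. The lactate exporter Slc16a3 was higher at 32.7 and 137 CPM (4.18-fold, 3.72 to 4.71). The glucose transporter Slc2a3 stayed under 5 CPM in both libraries. Mif, an inflammatory cytokine, went from 121 to 789 CPM (6.5-fold). Hif1a went from 76.1 to 169 CPM (2.22-fold, 2.05 to 2.40), which was past 2-fold under 14 of 16 settings.
Other measures moved with these values. Median UMIs per microglia-like cell were 3818.5 in sham and 13770 at 3 dpi, cell cycle genes summed to 310 and 2191 CPM, and immediate early genes, which respond to dissociation as well as to stimuli, summed to 47457 and 5563 CPM. Their part in the ratios was not tested beyond the values with thinned cells, where the enzyme median was 2.19, and without cycling cells, where it was 1.76. In thinned cells, Pgk1 was seen in 4.81% of the sham microglia-like cells and 32.5% of those at 3 dpi (17.8% and 92.3% before thinning), and Hilpda in 1.71% and 15.2%.

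**Figure D2:**
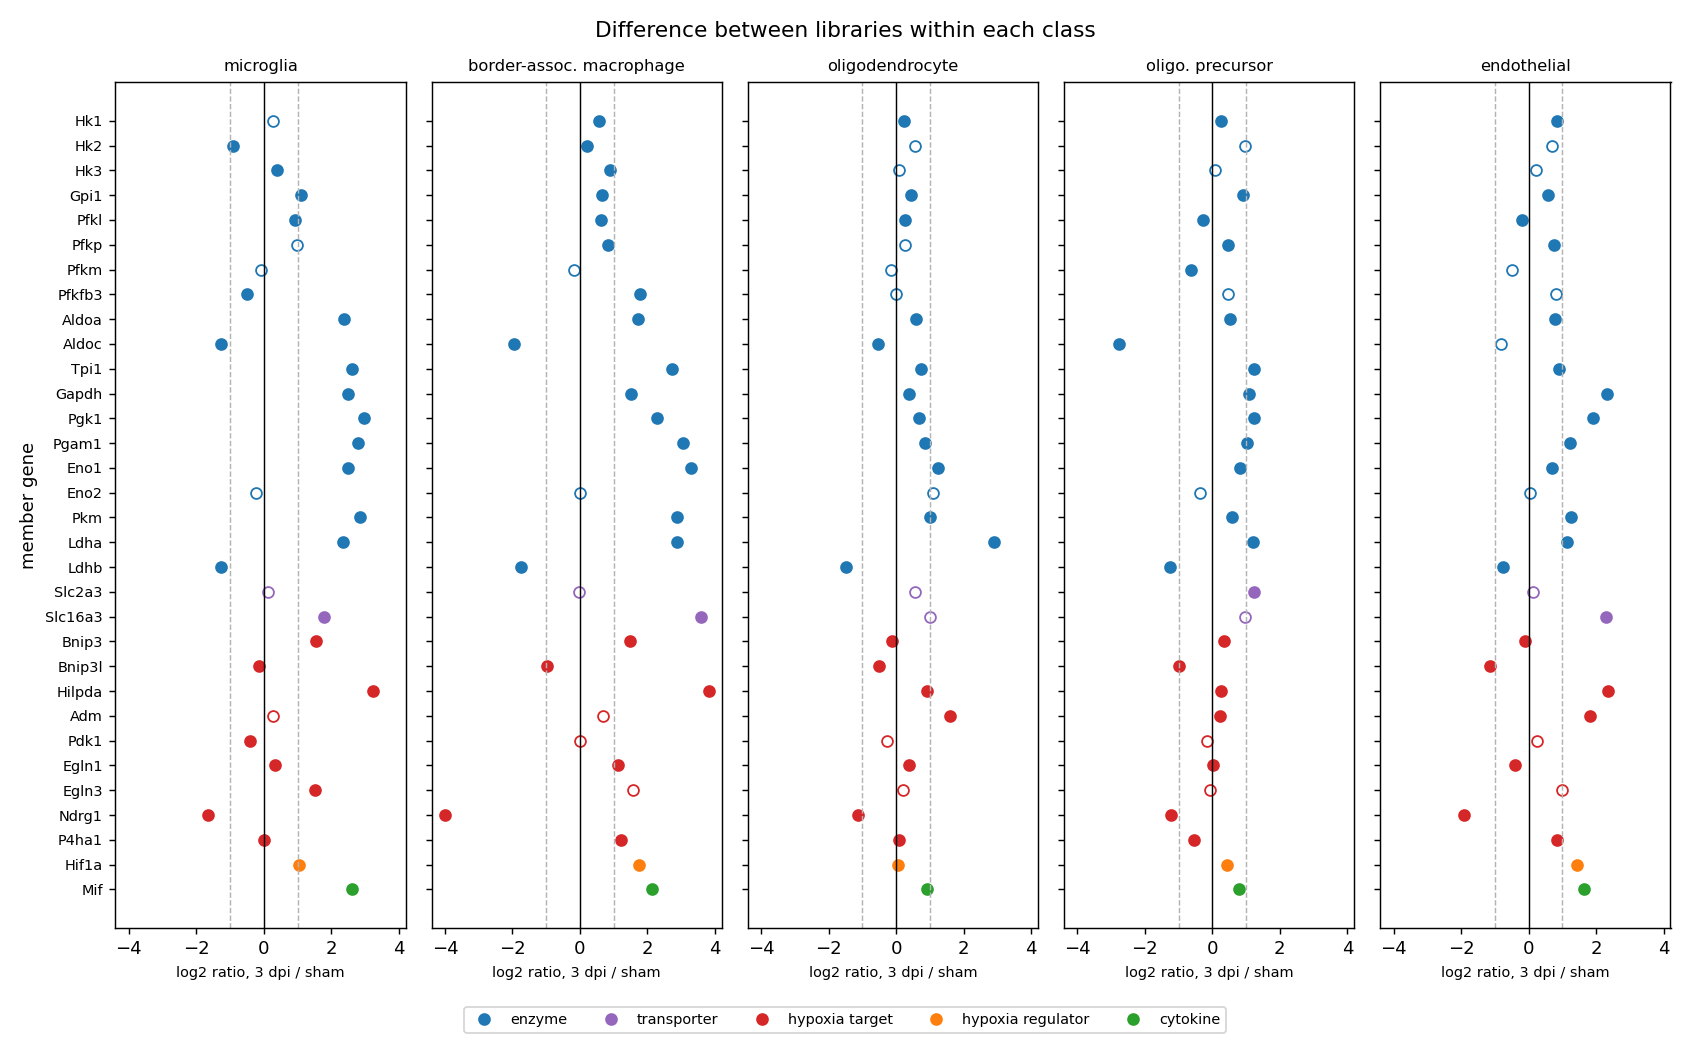
Log2 ratio (3 dpi divided by sham, 10 CPM added to each) for each member (rows) in the 5 classes compared, coloured by role. Open circles mark members under 20 CPM in both libraries and dashed lines mark 2-fold. Ldha lies to the right of the dashed line and Ndrg1 to the left in all 5 panels.

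Border-associated macrophage-like cells, phagocytes of the meninges and vessel walls, were few (53 cells in sham, 76 at 3 dpi, both in cluster 24). Their own markers summed to 6163 CPM in sham and 6467 at 3 dpi, and the monocyte and macrophage markers to 845 and 4421. In the Arg1-Pf4 cluster at 3 dpi these sums were 5955 and 5358 CPM. Immediate early genes summed to 19894 CPM in the sham border-associated macrophage-like cells and 4307 at 3 dpi. The part of these in the ratios was not tested. In this class enzymes were higher in 9 of 17 measured members and lower in 2, with a median of 1.5. Of all measured genes 10.1% were higher and 15.6% lower. Hilpda went from 2 UMIs (7.94 CPM) to 196 (242 CPM). Eno1, enolase, went from 14 to 515 UMIs, or 55.6 to 637 CPM (11.5-fold, 6.77 to 21.1). Pgam1 and Pkm went from 79.4 to 725 and from 171 to 1320 CPM. Slc16a3 had 0 UMIs in sham and 89 at 3 dpi, at least 9.25-fold higher if the sham class is set to 3 UMIs in all. Of 6 measured hypoxia targets 4 were higher and 1 lower, with a median of 1.17. With the stricter cell filter 2 were higher, Egln1 and P4ha1 being lost. Among targets at 100 CPM or more 1 was higher and the median was -0.99. No share over all genes is given for these other settings. Ndrg1 (270 and 7.42 CPM), Aldoc (43.7 and 3.71) and Ldhb (107 and 24.7) were lower. The summed myelin markers were at 12187 CPM in the sham cells and 306 at 3 dpi, or 19.6% of the oligodendrocyte-like level in sham, beside 25.1% for Ndrg1, 17.3% for Aldoc and 23.6% for Ldhb. With thinned cells the Ldhb ratio was 0.05, and that of Aldoc 0 to 2 decimals, so neither call held.

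Oligodendrocyte-like cells showed fewer differences. Of 13 measured enzymes 3 were higher and 1 was lower, with a median of 0.60, where 5.57% and 4.19% of all measured genes were higher and lower. Ldha went from 10.0 CPM (9.09 to 11) to 138 (133 to 144), 13.8-fold higher (12.5 to 15.3). Eno1 went from 78.1 to 200 CPM and Pkm from 165 to 343. Pkm was past 2-fold under 12 of 15 other settings and Eno1 under 14. Ldhb was lower, at 454 and 155 CPM (2.93-fold lower, 2.82 to 3.05). The abundant enzymes Gapdh (1338 and 1747 CPM) and Aldoa (555 and 843) stayed within 2-fold. Of 7 measured hypoxia targets, Adm, a vasodilator peptide, went from 13 UMIs (0.298 CPM) to 392 (21.0 CPM). Ndrg1 went the other way, from 1077 to 485 CPM, under all 15 settings. Bnip3l (677 and 474 CPM), Bnip3 (58.7 and 52.8), Egln1 (83.9 and 113) and Hif1a (47.2 and 49.6) stayed within 2-fold. Median depth was similar, at 7564.5 and 8359.5 UMIs a cell, and the clusters that hold the class were 2, 6, 8 and 21 in sham and 11, 12 and 16 at 3 dpi.

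Oligodendrocyte precursor-like cells (283 and 862 cells, clusters 19 and 10) had 5 of 15 measured enzymes higher and 2 lower, where 7.23% and 13.5% of all measured genes were higher and lower. Pgk1 (134 and 331 CPM), Tpi1 (158 and 384), Ldha (227 and 531), Gapdh (755 and 1623) and Pgam1 (264 and 545) were between 2.07- and 2.47-fold higher. With cycling cells left out 0 of these 5 passed 2-fold, and their log2 ratios were 0.59 to 0.93. Cell cycle genes summed to 813 CPM in sham precursors and 4902 at 3 dpi, and median UMIs per cell were 5202 and 11589. Immediate early genes summed to 24198.5 CPM in sham precursors and 6486 at 3 dpi. The precursor markers summed to 10505 and 3030 CPM (0 of 9 undetected in either), and the neuron markers to 175 and 615, and the part of these in the ratios was not tested. Aldoc went from 743 CPM (700 to 788) to 99.8 (94 to 106), 7.44-fold lower (6.84 to 8.09), and was the member of this class whose call held under all 15 settings. Ldhb (452 and 185 CPM) was lower too, but that call was lost under 4 of 15 settings, with a log2 ratio of -0.61 without cycling cells. Slc2a3, the neuronal glucose transporter, was higher (24.1 and 70.0 CPM), and its log2 ratio was 0.25 with thinned cells. Of the 7 measured hypoxia targets 0 were higher. Hilpda was at 34.8 and 43.5 CPM, Adm at 16.0 and 20.6, Egln1 at 122 and 125 and P4ha1 at 66.9 and 42.5, and the median was 0.03. Ndrg1, lower at 28.1 and 6.41 CPM, had a log2 ratio of 0.20 with free RNA subtracted.

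Endothelial-like cells (1404 and 383 cells, clusters 5 and 17) had 5 of 13 measured enzymes higher and 0 lower, with a median of 0.83, where 8.31% and 13.9% of all measured genes were higher and lower. Gapdh went from 399 to 2057 CPM (5.15-fold, 4.93 to 5.39). Pgk1 (84.6 and 345 CPM), Pkm (390 and 944), Pgam1 (121 and 299) and Ldha (297 and 661) were also higher, and without cycling cells Pkm and Pgam1 did not pass 2-fold. Hilpda went from 22.4 to 156 CPM (6.99-fold, 5.81 to 8.46). Adm, which vessels release, went from 21.7 to 101 CPM (4.68-fold, 3.86 to 5.71). Slc16a3 went from 8 UMIs (1.39 CPM) to 302 (45.4 CPM), 32.7-fold higher (16.4 to 76.5). Hif1a was at 57.4 and 171 CPM and Mif at 131 and 427. Other hypoxia targets were lower: Ndrg1 went from 684 to 175 CPM (3.92-fold lower, 3.67 to 4.19) and Bnip3l, another mitochondrial removal receptor, from 487 to 217 CPM. The Bnip3l call was lost under 4 of 15 settings, among them median-of-ratios scaling. That scaling shifts this class by 0.22 and precursors by 0.20 on the log2 scale. Median UMIs per cell were 3219.5 in sham and 12150 at 3 dpi, and immediate early genes summed to 31236.5 and 11652 CPM. The endothelial markers summed to 23024 and 7365 CPM, and ribosomal protein genes made up 10.2% and 24.7% of UMIs. The part of these in the endothelial-like ratios was not tested.

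Side by side over the 5 classes, Ldha was higher in all 5 (its call was lost with thinned cells in endothelial-like cells, and under 2 settings in precursor-like cells), and Pgk1, Pgam1, Gapdh and Pkm in 4 each. In precursor-like cells the calls of Pgam1, Gapdh and Pgk1 were lost under 8, 4 and 4 of 15 settings. In endothelial-like cells those of Pgam1 and Pkm were lost under 2 and 1, and in oligodendrocyte-like cells that of Pkm under 3. Ndrg1 was lower in all 5 and Ldhb in 4, with the exceptions for microglia-like, precursor-like and border-associated macrophage-like cells given above. No share of all genes called the same way in as many classes is given. These counts over classes therefore do not set the members apart from other genes. Every class compared had hypoxia targets on both sides of 0. Enzyme UMIs outnumbered hypoxia target UMIs by more at 3 dpi in all 5: there were 6.47 enzyme UMIs for each hypoxia target UMI in sham microglia-like cells and 15.1 at 3 dpi. In oligodendrocyte-like cells these figures were 1.84 and 3.95, in precursor-like cells 7.78 and 15.2, in endothelial-like cells 1.65 and 7.01, and in border-associated macrophage-like cells 3.46 and 12.3. Without Gapdh the direction was the same in all 5 (5.12 and 10.1 in microglia-like cells). Ndrg1 and Bnip3l supply most target UMIs in sham oligodendrocyte-like, endothelial-like and border-associated macrophage-like cells. With these 2 genes left out of the targets, a choice made after seeing the data, the direction turned in border-associated macrophage-like cells (18.6 and 15.3). In oligodendrocyte-like cells the figures were then 18.8 and 19.1, in microglia-like cells 12.3 and 19.6, in precursor-like cells 15.3 and 21.9, and in endothelial-like cells 9.47 and 13.

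Isozyme shares differed between classes and between libraries. Lactate dehydrogenase is built from Ldha subunits, which favour lactate, and Ldhb subunits, which favour pyruvate. Ldha made up 20.4% of Ldha and Ldhb UMIs in sham microglia-like cells (Clopper-Pearson interval 19.4 to 21.4) and 77.2% at 3 dpi (76.8 to 77.7). In oligodendrocyte-like cells it was 2.16% (1.96 to 2.37) and 47.2% (45.9 to 48.5). In precursor-like cells it was 33.4% and 74.2%. Endothelial-like cells were already at 88.2% in sham and reached 97.1%. At 3 dpi the share was 95.1% in the Arg1-Pf4 cluster, 98.4% in monocyte/macrophage-like cells, 95.8% in neutrophil-like cells and 96.4% in fibroblast-like cells. Microglia-like cells at 3 dpi lay below each of these, and astrocyte-like cells (56.7%) and oligodendrocyte-like cells were the lowest.

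**Figure D3:**
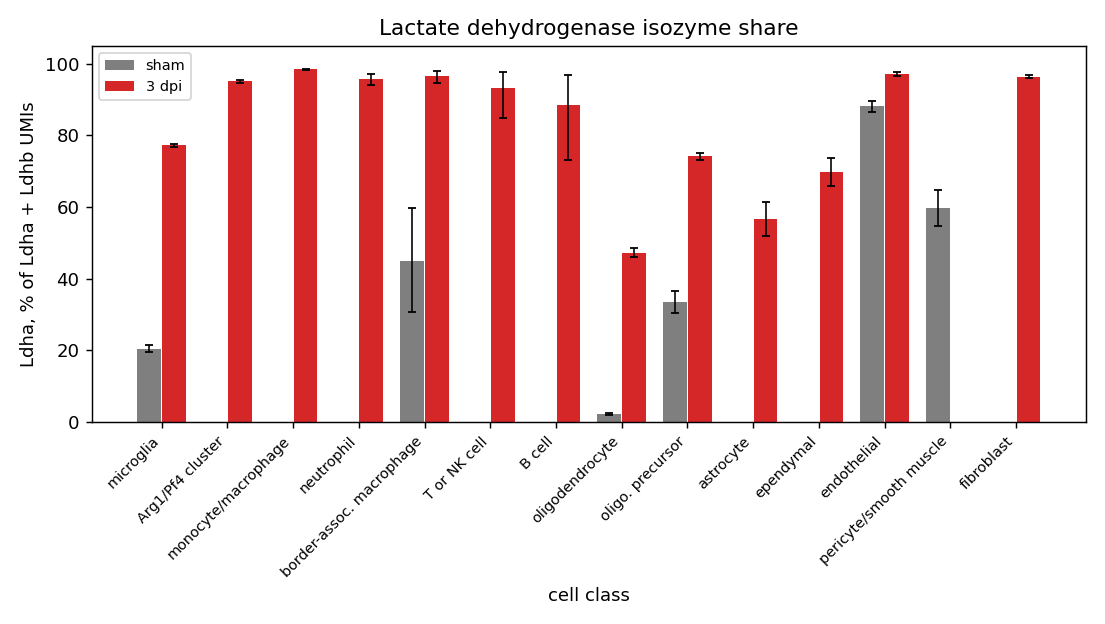
Ldha as a percent of Ldha and Ldhb UMIs in each cell class, with exact 95% intervals for counting error. Grey bars are sham and red bars 3 dpi, and classes under 50 cells in a library have no bar. The share was higher at 3 dpi in all 5 classes with both bars, from 2.16% to 47.2% in oligodendrocyte-like cells.

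In the other enzyme families, Hk2 held 90.2% of hexokinase UMIs in sham microglia-like cells and 77.4% at 3 dpi, with Hk3 going from 6.86% to 15.9%. Fibroblast-like cells shared this form (87.7% Hk2), whereas endothelial-like cells used Hk1, the housekeeping form, for 96.5% and 89.8%. The aldolase of precursor-like cells went from 68.2% Aldoc (65.9 to 70.5) to 16.5% (15.6 to 17.4). Among phosphofructokinases, Pfkl held 85.3% in 3 dpi microglia-like cells and 58.9% in monocyte/macrophage-like cells, and Pfkp held 58.9% (51.9 to 65.6) in neutrophil-like cells. Pfkm was at 0.629% to 2.61% in the 5 phagocyte classes at 3 dpi and at 27.7% in both precursor-like and astrocyte-like cells at 3 dpi. Eno2, the neuronal enolase, stayed under 20 CPM in every class of both libraries.

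Within the 3 dpi library, members were set against microglia-like cells class by class. In the Arg1-Pf4 cluster 2 of 27 measured members were higher than in microglia-like cells and 1 was lower, where 3.85% and 7.85% of all measured genes were. In monocyte/macrophage-like cells (1653 cells) these counts were 3 and 1 of 27, beside 7.19% and 4.92%, so in both the counts are near the share over all genes. Pfkp, the platelet-type phosphofructokinase, was at 14.3 CPM in microglia-like cells, 48.2 in the Arg1-Pf4 cluster and 90.0 in monocyte/macrophage-like cells. Hilpda was at 234, 570 and 480 CPM in the same order, and Ldhb at 223, 38.2 and 14.4. The core enzymes differed less, with Pkm at 1566, 1477 and 1462 CPM and Ldha at 757, 738 and 901. With coarser clusters the Arg1-led cells fell in unnamed clusters and the monocyte/macrophage-like class was the MHC class II-led cluster alone (483 cells at 3 dpi). Its medians were -0.37 for enzymes and -0.49 for targets, in place of 0.25 and 0.55. In border-associated macrophage-like cells 0 of 26 members were higher and 1, Ldhb at 24.7 CPM, was lower, beside 3.28% and 2% of all genes.

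Neutrophil-like cells (1470 cells, median 1037.5 UMIs) had a different mix. Of 28 measured members 6 were higher than in microglia-like cells and 4 lower, close to or below the 19.4% and 16.8% of all genes. They had the highest level of 4 members, with Hilpda at 726 CPM (686 to 768), Slc16a3 at 321, Egln3 at 72.4 and Mif at 963, and the intervals of Mif overlapped those of precursor-like cells (948). For this count too no share over all genes is given. Slc2a3 was at 43.2 CPM and under 5 in the other phagocytes. In contrast Ldhb (20.4 against 223 CPM), Hk2 (83.0 and 220), Tpi1 (242 and 552) and Pgk1 (219 and 466) were lower. Ldhb had the largest difference of these, with a log2 ratio of -2.94. The enzymes numbered 4.76 per hypoxia target UMI here, the lowest ratio of the 13 classes at 3 dpi after oligodendrocyte-like cells (3.95).

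Fibroblast-like cells (646 cells, 3 dpi library alone) had 3 of 28 measured members higher than microglia-like cells and 4 lower, where 19.2% and 11% of all genes were. Their Ldha level, 1061 CPM (1043 to 1080), was the highest of the 13 classes, above monocyte/macrophage-like cells (901). P4ha1, which hydroxylates collagen chains, was also highest here, at 158 CPM. Adm was at 86.7 CPM against 2.55 in microglia-like cells and 101 in endothelial-like cells. Hk2 (223 CPM) did not differ from the microglia-like level (220) beyond the counting intervals. Endothelial-like cells had 4 of 28 members higher than microglia-like cells and 10 lower, beside 18% and 10.9% of all genes, and Hk2 was at 8.72 CPM there. Astrocyte-like cells (126 cells) had 6 of 30 members higher than microglia-like cells and 7 lower, beside 22.9% and 13.2% of all genes. They had the highest Aldoc (275 CPM), Ldhb (404), Pfkp (148) and Pfkm (78.5). T or NK cell-like cells (78 cells) were lower than microglia-like cells in 16 of 25 measured members and higher in 1, where 20.3% and 19.7% of all genes were, with Hif1a at 235 CPM next to the 319 of monocyte/macrophage-like cells. B cell-like cells (92 cells) were lower in 17 of 26 and higher in 2, Pfkp and Slc2a3, beside 22.3% and 20% of all genes. Oligodendrocyte-like cells were higher in 4 of 28 and lower in 15, beside 25.4% and 16.2%. Precursor-like cells were higher in 6 of 30 and lower in 13, beside 27.4% and 10.8%. Ependymal-like cells (70 cells) were higher in 2 of 28, Aldoc and Ndrg1, and lower in 8, beside 26.3% and 10.8%. In all 4 of these classes and in the T or NK cell-like cells, Hk2 and Hk3 were lower than in microglia-like cells.

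Clusters inside a class differed as well. In sham oligodendrocyte-like cells Ldhb was at 67.1 CPM in cluster 2 (led by Ptgds and Opalin), 411 in cluster 6 and 849 in cluster 8 (led by Klk6 and Hopx). Aldoc had the same order at 49.0, 145 and 530 CPM, and Ldha the opposite one at 17.3, 9.80 and 3.42. Mif followed Ldha, at 548, 340 and 245 CPM. Median UMIs per cell were 5877, 8293 and 13842 in the same clusters. At 3 dpi cluster 12, led by Serpina3n and Klk6, held the most Ldhb (244 CPM) and Aldoc (291). Cluster 16, led by Gpd1, held the most Ldha (217), Pkm (600), Mif (1174) and Adm (77.5 CPM against 5.49 and 9.81 in clusters 11 and 12). No oligodendrocyte-like cluster held 50 or more cells in both libraries, so for Ldhb and Aldoc the mix of clusters cannot be told apart from the level within cells.

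**Figure D4:**
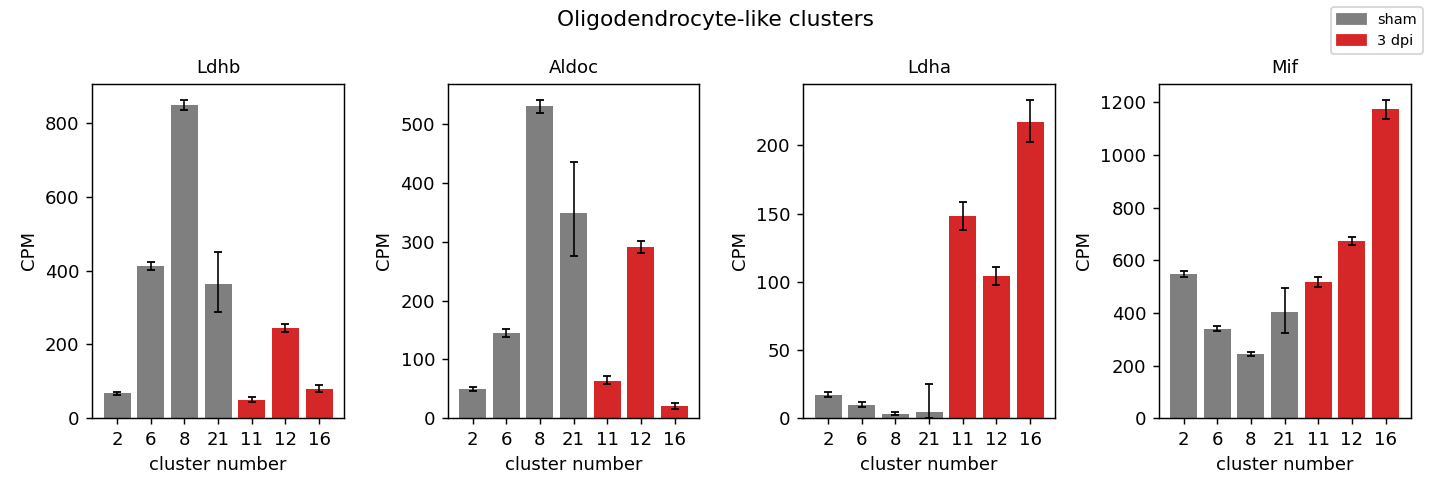
CPM of Ldhb, Aldoc, Ldha and Mif in the oligodendrocyte-like clusters of the sham (grey) and 3 dpi (red) libraries, by cluster number, with exact 95% counting intervals. Ldhb and Aldoc are highest in clusters 8 and 12, and Ldha is above 100 CPM in each 3 dpi cluster and under 20 in each sham cluster.

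In monocyte/macrophage-like cells, cluster 7, led by Arg1, had more of these members than cluster 14, led by MHC class II genes. Hif1a was at 405 and 179 CPM, Slc16a3 at 270 and 114, Bnip3 at 144 and 40.7, and Egln3 at 56.5 and 12.4. Ldha differed less (972 and 787). A finer clustering split 3 dpi microglia-like cells into a cycling cluster and 2 others, 1 of them led by Spp1, C1qa and Hmox1, the haem-degrading enzyme. That cluster had Pkm at 2013 CPM against 1151 in the other, Hilpda at 305 and 177, Egln3 at 33.5 and 13.8, and Ldhb at 155 and 326. Leaving it out of the class left the enzyme median at 2.22. Finer neutrophil-like clusters separated too: the one led by Lcn2 and Retnlg had Slc16a3 at 602 CPM, Slc2a3 at 96.0 and Hilpda at 522, against 205, 21.5 and 810 in the other.

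Cells of male and female mice in the same pool gave close values of Pgk1, Ldha and Hilpda in the microglia-like class, and less close ones elsewhere. They were told apart by Y-linked and Xist UMIs, and cells with neither or both were left out. In sham microglia-like cells Pgk1 was at 48.9 CPM in 504 male-derived and 45.5 in 865 female-derived cells, and at 3 dpi at 480 and 453. Ldha was at 138 and 147 in sham and 768 and 748 at 3 dpi, and Hilpda at 14.2 and 16.8 and then 247 and 229. In each of these the 2 libraries did not overlap. Ldhb at 3 dpi was 203 CPM in male-derived and 259 in female-derived cells. In oligodendrocyte-like cells Ldha was at 10.5 and 8.49 in sham and 145 and 106 at 3 dpi. Some calls between libraries were lost in female-derived cells, among them Ldha in precursor-like and Hif1a in microglia-like cells. That of Gapdh in precursor-like cells was lost in male-derived cells. Male- and female-derived cells come from the same 2 libraries, so they are no replicates of the comparison.

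**Figure D5:**
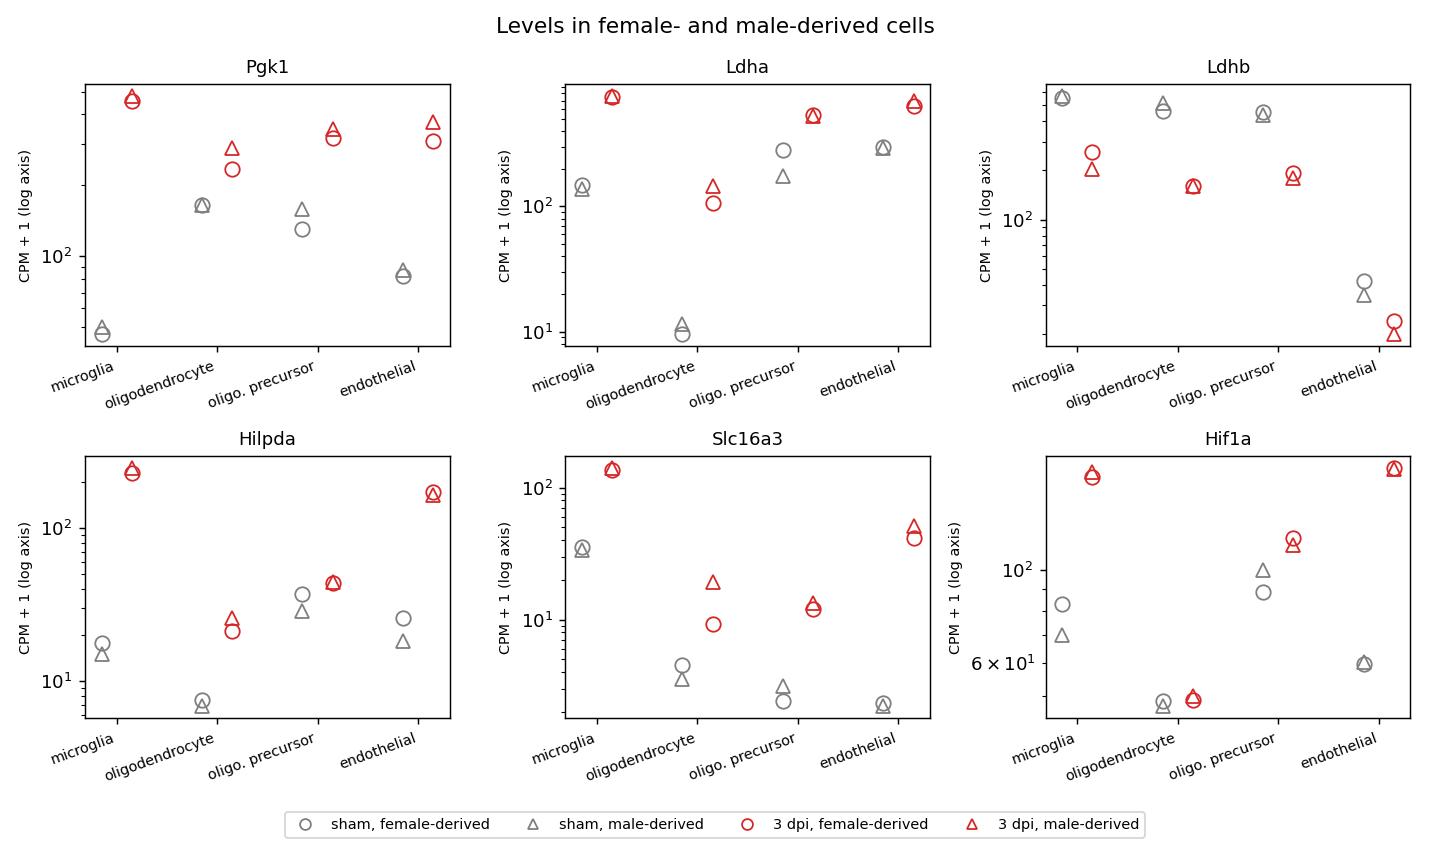
Level (CPM + 1, log axis) of 6 members in female-derived (circles) and male-derived (triangles) cells of 4 classes, sham in grey and 3 dpi in red. Grey and red symbols are apart for Ldha and Ldhb in all 4 classes, whereas Hif1a is close in oligodendrocyte-like cells.

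Other genes of the same pathways were taken from 2 lists of 30 glucose and 25 hypoxia genes. In microglia-like cells 2 of 16 measured glucose genes were higher and 2 lower, and 3 of 12 hypoxia genes were higher and 2 lower, beside 11.7% and 16.4% of all genes. The medians were 0.40 and 0.24. Slc2a5, the fructose transporter that marks resting microglia, went from 196 to 6.84 CPM (28.6-fold lower, 25.1 to 32.8). Ero1l, an oxidase of the endoplasmic reticulum, was higher (11 and 74.4 CPM), as was the mitochondrial Higd1a (57.7 and 194). Cited2, an inhibitor of HIF activity, was lower (347 and 101 CPM). In endothelial-like cells 0 of 12 glucose genes were higher and 2 lower: the barrier glucose transporter Slc2a1 went from 2519 to 782 CPM and the lactate transporter Slc16a1 from 177 to 50.6. Of 16 hypoxia genes 3 were higher and 2 lower there (median -0.34), beside 8.31% and 13.9% of all genes. Among them were Ankrd37, a target of HIF (11.3 and 68.5 CPM), and the endothelial HIF subunit Epas1 (1153 and 249 CPM). In precursor-like cells 1 of 16 hypoxia genes was higher and 4 were lower (median -0.43), beside 7.23% and 13.5% of all genes. The lower ones included Epas1 (164 and 25.9 CPM) and the vessel growth factor Vegfa (83.6 and 16.9). Oligodendrocyte-like cells had 0 of 7 hypoxia genes higher and 1 lower, Ddit4, an mTOR inhibitor (102 and 35.0 CPM), beside 5.57% and 4.19% of all genes.
Between 3 dpi classes, Vegfa was at 7.48 CPM in microglia-like cells, 108 in the Arg1-Pf4 cluster and 135 in monocyte/macrophage-like cells. Pygl, glycogen phosphorylase, was at 20.5 CPM in microglia-like and 230 in neutrophil-like cells. The collagen-modifying genes Lox (695 CPM against 3.13), Plod2 (491 against 2.28) and P4ha2 (123 against 10.7) were higher in fibroblast-like than in microglia-like cells.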

How the data were processed

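Single-cell RNA was measured with 10X 3′ chemistry in 2 libraries, 1 sham and 1 at 3 dpi. The deposited tables hold raw UMI counts per gene and barcode, per the file headers and values. Cell Ranger, Seurat and the build GRCh38 are named in the submitters' processing notes with no role, although the gene symbols are in mouse form. The labels do not say whether counting used strand, and Gapdh, Aldoa, Pgk1, Pkm and Ldha have near-identical copies whose reads cannot be told apart.

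Cells with at least 200 genes and 500 UMIs were kept (10126 of sham, 13584 of 3 dpi), and 820 and 1476 called doublets were removed. Cells were clustered (2000 variable genes in 20 expression bins, 30 components, 15 neighbours, Leiden resolution 1) without members, pathway, immediate early, ribosomal and sex-linked genes. Markers of 17 classes were used to name the 30 clusters, and 3 stayed unnamed. These were the Arg1-Pf4 cluster, cluster 18 (328 sham cells led by Vtn, Rgs5 and Cldn5) and cluster 27 (66 sham cells led by Gpr17). Cells of clusters 18 and 27 are in none of the class levels. The thresholds for naming were set after the data were seen, so differences from other annotations may come from these rebuilt names. Clustering used leidenalg 0.10.2 with igraph 0.11.9 and scikit-learn 1.9.0, intervals came from scipy 1.17.1, tables from pandas 2.3.3 with numpy 2.4.6, and plots from matplotlib 3.10.9, all under Python 3.11.15. The calculations were tested on simulated counts with known folds. These held counting error alone, without differences between cells or animals, so the test does not show how the intervals behave in real libraries.

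Counts were summed per class and library. The text accounts for all 32 members, gives full values from 100 CPM and 20 UMIs upwards, leads each class with up to 5 per direction by log2 ratio, and names up to 4 pathway genes per class from 50 CPM upwards. Thinning drew 1000 UMIs per cell. Cycling cells held 3 or more cell cycle UMIs, which deep cells reach sooner. Male-derived cells had Y-linked UMIs without Xist, and female-derived cells the reverse. Intervals and floors (3 counts) treat UMIs as independent. The members and lists were chosen with earlier results of these data known. Some pathway results are not reported here.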

Additional observations from a re-analysis of the deposited data

Results flagged for a closer look

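Pathway genes with calls in opposite directions in different classes are given here as values, and the difference between the classes was itself not tested. Pfkfb4, an enzyme that sets the level of the phosphofructokinase activator, was lower at 3 dpi in microglia-like cells (30.8 and 8.40 CPM, log2 ratio -1.15) and higher in oligodendrocyte-like cells (7.58 and 35.4 CPM, 1.37). Bhlhe40, a transcription repressor induced by hypoxia, was higher in microglia-like cells (2.21 and 29.3 CPM, 1.69) and lower in precursor-like cells (187 and 46.2 CPM, -1.81). Each value comes from 1 library a group.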

How the results depend on the processing

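No paired analysis was possible because each group has 1 library. Of 675 list values under other settings, 629 stayed the same, 45 moved and 1 reversed. Of the values of single genes 8027 stayed, 202 moved and 3 reversed. For the counts of members under other settings below, neither the number measured nor the share over all genes is given. They show how the calls shift with the setting and do not set the members apart from other genes.

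Between libraries, endothelial-like members lower numbered 2, and 1 with median-of-ratios scaling, per-cell means, female-derived cells or cycling cells left out, and 4 with doublets kept. Endothelial-like enzymes higher were 3 in place of 5 without cycling cells. Oligodendrocyte-like hypoxia targets higher numbered 1, and 2 with 1 CPM added and 0 at 100 CPM or more or thinned, and enzymes higher were 1 in place of 3 in female-derived cells. In microglia-like cells the enzyme median of 2.34 was 0.996 with no filter, hypoxia targets higher were 1 in place of 3 at 100 CPM or more, and members lower were 1 in place of 3 at 100 CPM or more and with free RNA subtracted. In border-associated macrophage-like cells at 100 CPM or more, the enzyme median was 2.27 in place of 1.5, the hypoxia target median -0.99 in place of 1.17 and targets higher 1 in place of 4. These targets higher were 2 with the stricter cell filter, and their median 0.42 thinned. Precursor-like enzymes higher were 3 in place of 5 with the stricter filter, coarser clusters, members kept for clustering, per-cell means, thinned or female-derived cells, and 0 without cycling cells. Their hypoxia targets higher were 1 in place of 0 with doublets kept or thinned. The log2 ratio of Ndrg1 turned to 0.037 in microglia-like and 0.20 in precursor-like cells with free RNA subtracted, and that of Ldhb to 0.052 in thinned border-associated macrophage-like cells.

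Against microglia-like cells at 100 CPM or more, members higher were 1 in the Arg1-Pf4 cluster, 1 in monocyte/macrophage-like, 2 in neutrophil-like, 2 in endothelial-like and 0 in fibroblast-like cells, and fibroblast-like members lower were 2. Coarser clusters, where the class is a smaller set of cells, gave monocyte/macrophage-like medians of -0.37 (enzymes) and -0.49 (targets), with 1 member higher and 3 lower. Without cycling cells members lower were 2 in the Arg1-Pf4 cluster, 2 in monocyte/macrophage-like and 9 in fibroblast-like cells. Neutrophil-like members lower were 2 when thinned and without the Hmox1-led cluster, an alternative chosen after seeing the data. The endothelial-like hypoxia target median of -0.55 was 0.51 at 100 CPM or more, 0.18 by per-cell means and 0.10 without the Hmox1-led cluster. The cause of these shifts was not tested. Border-associated macrophage-like cells gave no value with coarser clusters, doublets kept, cells split by sex or cycling cells left out. With 1 library a group, differences between animals are not in any interval, and classes under 100 cells hold few UMIs per member.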
